A study of Nothobranchius furzeri with 20 samples.

Results

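The 150 genes described here were those of the skin of the turquoise killifish (Nothobranchius furzeri) whose level in every fish titled JM132 to JM136, exercised and 27 weeks old, lay furthest above that of the other 15 fish. They were taken from 26739 genes in the table by measured values. Counts were scaled to a library total of 1000000 (CPM) and put on the scale log2(CPM + 0.5). A gene qualified with a mean of 1 to under 1000 CPM over 20 libraries and a lowest fish of JM132 to JM136 above all others. The range of the fish JM140 to JM144, of the same age and label, also had to overlap that of the fish of 9 weeks, and the exercised and unexercised ranges at 9 weeks had to overlap each other. Of 16648 genes in the CPM window, 2415 met the rule (14.5%), and the 150 with the largest gap between the lowest fish of JM132 to JM136 and the highest of the others are the members.

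The study measured skin RNA of male fish of the strain MZM-04/10p at 9 and 27 weeks of age, with and without exercise in a swim tunnel, which makes fish swim against flowing water. The 20 libraries comprise 5 of unexercised fish of 9 weeks (JM124 to JM128), 5 of exercised fish of 9 weeks (JM117 to JM121) and 10 of exercised fish of 27 weeks. The last carry 1 shared label but fall into 2 runs of title numbers with 5 libraries each, JM132 to JM136 (here the JM132 run) and JM140 to JM144 (the JM140 run), and the labels do not say what separates the runs. No unexercised fish of 27 weeks is among the samples used here. Each library was taken as 1 fish, which the labels do not state, so the spread between libraries may be partly technical.

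The turquoise killifish lives in seasonal ponds and completes its life quickly, which has made it a vertebrate model of ageing. Fish skin is a living epidermis with mucus-secreting cells over a dermis that carries scales and pigment cells, and it also holds resident immune cells, nerve fibres and vessels. In bulk skin RNA, a change in the number of cells of one type and a change in RNA per cell cannot be told apart. The files pair no identifier with a gene name, and 0 of 26739 identifiers were found in the reference gene table. No member is therefore given a name or function, the skin label was not checked against marker genes, and only identifiers selected by fixed criteria are printed.

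Libraries held 20597690 to 38619614 counts, and the JM132 run spanned both ends of this range. Every member had counts in every library. The lowest count of any member was 65 within the JM132 run and 6 among the other 15 fish. All 5 fish of the JM132 run had a TMM scaling factor, a correction for library composition, between 1.02 and 1.23. The JM140 run had factors of 0.841 to 0.942 and fish of 9 weeks of 0.910 to 1.20. For each gene of the CPM window the mean log2 level of the JM140 run was subtracted from that of the JM132 run. The median of these differences was 0.23 with scaling by library total alone and -0.03 with TMM-scaled CPM.

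The members were expressed at low to moderate levels in most of the fish and several-fold higher in the JM132 run. Their median level on the log2(CPM + 0.5) scale was 5.50 in JM132, 5.42 in JM133, 5.39 in JM134, 5.44 in JM135 and 5.75 in JM136. In JM140 to JM144 the medians were 3.21, 3.34, 3.15, 3.23 and 3.46, in the order of the titles. Exercised fish of 9 weeks had 2.87, 2.89, 3.00, 2.55 and 2.93, and unexercised fish of that age 2.75, 2.94, 3.69, 3.08 and 2.79. The 2 runs were separated by a wide margin, which the choice of members fixes. By library total JM126, an unexercised fish of 9 weeks, lay above every other fish outside the JM132 run. With TMM scaling its median was 3.43, below those of JM140, JM141 and JM144 (3.44, 3.57 and 3.57).

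**Figure D1:**
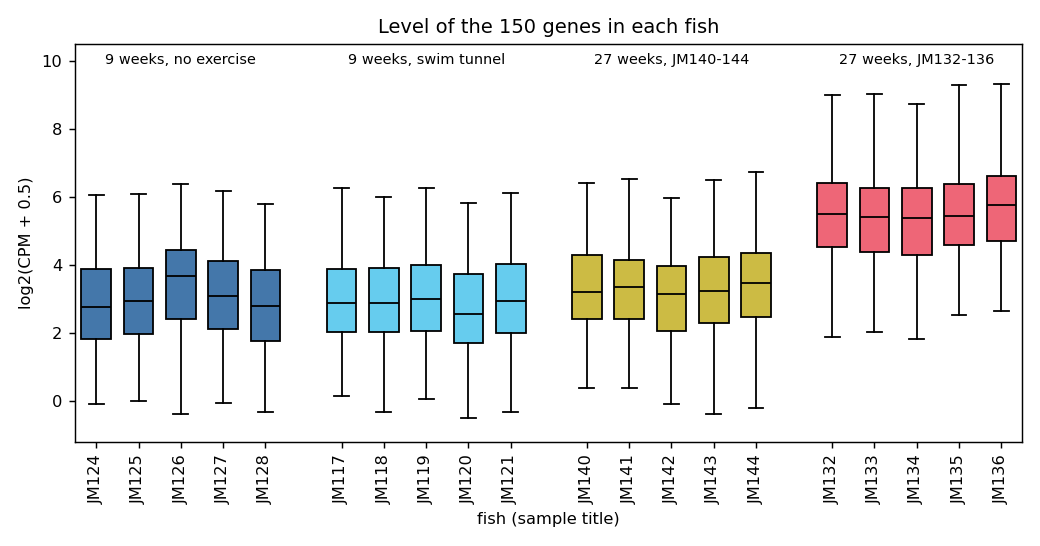
Level of the 150 members in each of 20 fish, as log2(CPM + 0.5); boxes give the quartiles, the inner line the median and whiskers the lowest and highest member. Medians of the JM132 run lie between 5.39 and 5.75 and those of the other 15 fish between 2.55 and 3.69.

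Together the members made up 0.977% of all counts in JM132, 0.887% in JM133, 0.866% in JM134, 0.954% in JM135 and 1.12% in JM136. Among the other fish the share ran from 0.147% in JM120 to 0.240% in JM126. Summed over the members, the level was 9607 ± 1001 CPM (SD, n = 5) in the JM132 run and 2090 ± 208 CPM (SD, n = 5) in the JM140 run. It was 1683 ± 134.2 CPM (SD, n = 5) in exercised and 1829 ± 347 CPM (SD, n = 5) in unexercised fish of 9 weeks. These sums describe the chosen genes and are not a test.

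Mean CPM in the JM132 run was between 2.91 and 24.7 times the mean of the other 15 fish, with a median of 5.11 and quartiles of 4.15 and 6.71. Against the JM140 run alone the ratio of means ran from 2.94 to 19.5, with a median of 4.49. More than 6-fold over the other 15 fish was found for 49 members, more than 8-fold for 25 and more than 16-fold for 1. The strictest ratio sets the lowest fish of the JM132 run against the highest of the other 15. It exceeded 2 for all 150 members, 3 for 54 members, 4 for 10 and 6 for 1.

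Nearly all members averaged 1 CPM or more in the other 15 fish, as did nearly all genes of the CPM window. The rule's lower bound of 1 CPM on the mean largely built this in. In these 15 fish 3 members averaged under 1 CPM, 49 averaged 1 to under 5 CPM, 69 averaged 5 to under 20 CPM and 29 averaged 20 CPM or more. Of all genes in the CPM window, 1.14%, 26.4%, 35.8% and 36.6% fell into these classes, against 2%, 32.7%, 46% and 19.3% of the members. The median ratio of the JM132 run to the other fish fell with level, from 12.6 in the lowest class through 5.55 and 5.07 to 3.83 in the highest. The classes were formed on the denominator of this ratio, and the 0.5 added to CPM asks a larger ratio of low genes, so the fall is partly built in, and the lowest class holds 3 genes. In the JM132 run the class means spanned 4.17 to 12.1, 5.83 to 40.7, 23.0 to 147.2 and 75.7 to 543.5 CPM.

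**Figure D2:**
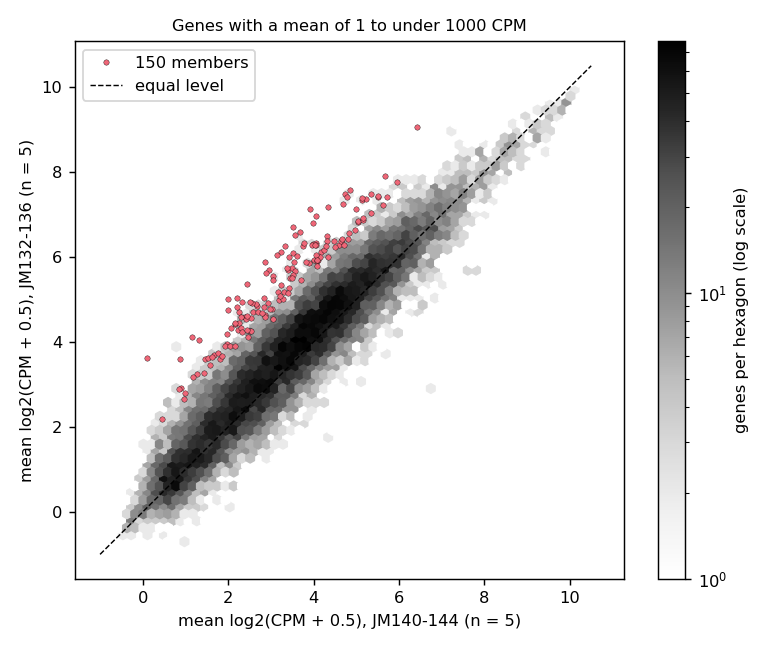
Mean log2(CPM + 0.5) of each gene in the JM140 run (horizontal, n = 5) and the JM132 run (vertical, n = 5). Grey hexagons count the 16648 genes in the CPM window, points are the 150 members and the dashed line marks equal levels. The members run along the upper edge, from a mean of 4.17 CPM to one of 543.5 CPM in the JM132 run. In the JM140 run no member had a mean above 87.2 CPM.

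Nfu_g_1_015122 had the largest gap of all members, 2.50 on the log2 scale. It was one of the 3 that averaged under 1 CPM in the other 15 fish. Its level was 16.5, 11.5, 13.3, 8.65 and 10.6 CPM in JM132 to JM136. In JM140 to JM144 it was 0.918, 1.12, 0.440, 0.261 and 0.363 CPM. Its lowest value in the JM132 run was 7.74 times the highest value elsewhere, which belonged to JM141.

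At 9 weeks, Nfu_g_1_015122 had 0.648, 0.294, 0.544, 0.484 and 0.303 CPM in exercised and 0.448, 0.497, 0.270, 0.463 and 0.298 CPM in unexercised fish, values that overlap those of the JM140 run. These levels rest on 7 to 33 counts per library outside the JM132 run. The edgeR log2 fold change of the JM132 run was 3.96 (SE 0.414) over the JM140 run and 4.60 (SE 0.286) over exercised fish of 9 weeks.

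Nfu_g_1_021007 had the next largest gap, 2.32, and was expressed in every fish. JM132 to JM136 had 88.9, 88.0, 71.4, 109.4 and 106.1 CPM. JM140 to JM144 had 10.6, 13.0, 9.13, 11.0 and 13.9 CPM. Exercised fish of 9 weeks had 6.81, 6.91, 8.06, 5.05 and 8.71 CPM, and unexercised fish 7.74, 8.36, 12.9, 7.73 and 6.17 CPM. The 27-week fish of the JM140 run stood above all exercised fish of 9 weeks and, through JM126, overlapped the unexercised ones. With 0.543 kb it is also a short gene, and it had 146 to 383 counts per library outside the JM132 run.

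**Figure D3:**
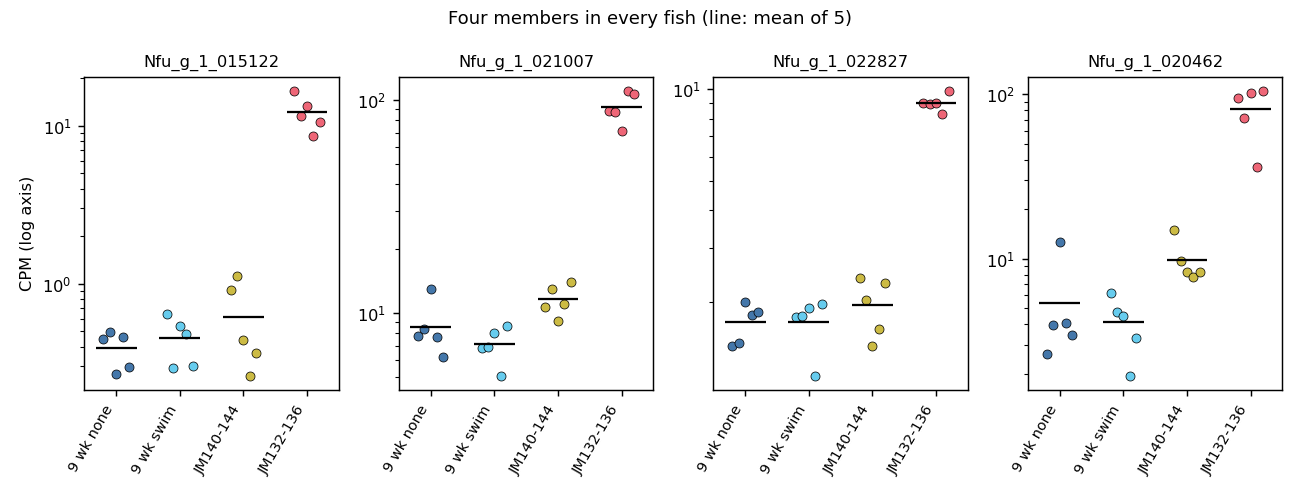
CPM of 4 members in every fish, on log axes that differ between panels, with the mean of 5 fish as a line. Nfu_g_1_015122 and Nfu_g_1_021007 had the largest gaps; within the JM132 run Nfu_g_1_022827 had the smallest spread and Nfu_g_1_020462 the largest. In each panel all 5 fish of the JM132 run lie above the other 15.

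Within the JM132 run the members were held in a narrow range. The SD over its 5 fish on the log2 scale had a median of 0.217 over the members, beside 0.271 over all genes of the CPM window, and was under 0.25 for 110 members and over 0.5 for 5. A rule that demands a high lowest fish favours even genes, so this is a description. In the other sets the members' median SD was 0.229 in the JM140 run, 0.210 in exercised and 0.280 in unexercised fish of 9 weeks, against 0.249, 0.236 and 0.240 over the window.

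Nfu_g_1_022827 was the most even member, at 9.03, 8.93, 9.03, 8.31 and 9.85 CPM in JM132 to JM136. It had 1.43 to 2.41 CPM in the JM140 run, 1.14 to 1.97 CPM in exercised and 1.43 to 2.01 CPM in unexercised fish of 9 weeks. Nfu_g_1_019784 followed, at 11.6, 12.7, 11.6, 12.6 and 13.7 CPM against 1.83 to 3.46 CPM in the JM140 run. Both are short genes, of 0.627 and 0.684 kb. For Nfu_g_1_022827, JM140, JM141 and JM144 lay above every fish of 9 weeks, at 2.41, 2.03 and 2.30 CPM, and the ranges overlapped. Over exercised fish of 9 weeks the edgeR log2 fold changes of the JM140 run were 0.37 (SE 0.214) and 0.03 (SE 0.167). Neither passed edgeR's adjusted threshold (adjusted p = 0.265 and 0.924).

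The members with the largest spread within the JM132 run were Nfu_g_1_020462 and Nfu_g_1_021233. In JM132 to JM136 the former had 94.8, 71.9, 102.4, 36.1 and 104.3 CPM and the latter 127.1, 103.3, 153.6, 56.2 and 147.4 CPM, with JM135 lowest in both. Among unexercised fish of 9 weeks JM126 was highest in both, at 12.7 and 20.4 CPM against at most 4.10 and 7.42 CPM in the other 4. Among exercised fish of 9 weeks JM120 was lowest in both, at 1.94 and 3.63 CPM, and among the JM140 run JM140 was highest, at 14.9 and 21.8 CPM. The opposite ends were not shared in every set: the highest fish of the JM132 run was JM136 for the former and JM134 for the latter.

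Individual fish of the JM132 run differed in how strongly they showed the members. JM136 had the highest level of the 5 in 94 members, JM135 in 40, JM132 in 11, JM134 in 5 and JM133 in 0. Over the CPM window these fish were highest in 40.0%, 20.5%, 16.8%, 14.8% and 8.01% of genes. JM134 was lowest in 71 members, JM135 in 37, JM133 in 36, JM132 in 6 and JM136 in 0. Over the window these fish were lowest in 18.7%, 31.5%, 26.4%, 16.9% and 6.58% of genes.

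The lead of JM136 moved with library scaling. It lay above the mean of its set in 95.3% of members by library total, and in 61.3% by TMM-scaled CPM, beside 78.2% and 48.6% of genes in the CPM window. Its scaling factor, 1.23, was the highest of the 20. With TMM scaling the members' median levels in JM132 to JM136 were 5.37, 5.40, 5.30, 5.41 and 5.46 on the log2 scale, so the fish lay closer together. By TMM-scaled CPM it was JM135 that most often lay above the set mean, in 68.7% of members (window 51.3%). JM134 remained low under both scalings. It lay above the set mean in 15.3% of members by library total (window 47.7%) and 19.3% by TMM-scaled CPM (window 52.2%).

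Each fish was also left out of the choice of members in turn, which gives levels in a fish that the rule had not used. Without any 1 fish of the JM132 run, the rule was met by 2431 to 2737 genes, and the 150 with the largest gap held 82.7% to 99.3% of the members. The left-out fish lay above all other 15 fish in 150 of 150 genes, for each of the 5 fish. Over all genes in the CPM window the same was true of 28.1% for JM132, 23.3% for JM133, 24.8% for JM134, 25.3% for JM135 and 34.0% for JM136. The left-out fish had a median level of 5.05 to 5.75 on the log2 scale, beside 2.77 to 3.12 for the 15 fish outside the JM132 run. The other 15 fish entered the choice, which took the largest gaps above them, so a high share was largely built in. No test was made of these shares, since genes of 1 fish are not independent.

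When a fish outside the JM132 run was left out, it lay below all of the JM132 run in 150 of 150 genes for 14 of these 15 fish. The exception was JM126, below all of the JM132 run in 96.7% of genes. Over the window this share was 27.8% for JM126 and 28.9% to 49.3% for the others. The JM132 run entered this choice, so a high share among the chosen genes was again largely built in. Without JM126 the rule was met by 2795 genes, and the top 150 held 110 of the members, the fewest for any fish left out.

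By library total, JM126 was the fish outside the JM132 run that most often came nearest to it. It was the highest of the 15 in 56 members (37.3%), beside 23.3% of genes in the CPM window. JM144 was highest in 40 members (26.7%, window 5.21%), JM140 in 21 (14%, window 3.13%) and JM141 in 13 (8.67%, window 5.33%). JM126 had a scaling factor of 1.20 and 17408 genes at 1 CPM or more, both the highest of its set, and 25924289 counts, the lowest of its set. With TMM scaling its median member level was 3.43, still above the other unexercised fish (2.70 to 3.00) and within the range of the JM140 run (3.30 to 3.57). The part of library composition in its level was not tested.

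Although chosen for a high level in the JM132 run, the members did not lie at the level of young fish in the JM140 run. Mean log2(CPM + 0.5) was higher in the JM140 run than over the 10 fish of 9 weeks for 90% of members. This share was 27.9% for genes in the CPM window and 47.2% for all 2415 genes that met the rule. With TMM-scaled CPM the mean was higher in the JM140 run for 150 of 150 members, beside 47.0% of the window. The median difference was 0.25 by library total (window -0.20, all genes meeting the rule -0.01) and 0.44 by TMM scaling (window -0.02). The position of the JM140 run was measured by library total along the log2 distance from the fish of 9 weeks to the JM132 run. It was at a median of 11.4% of the way, with quartiles of 5.90% and 17.0% and a range of -10.1% to 30.4%. This position was not computed with TMM scaling, where the JM140 run lay a median of 0.44 above all fish of 9 weeks. With that scaling the JM132 run lay a median of 2.24 above exercised and 2.20 above unexercised fish of 9 weeks. A description as high in the JM132 run alone thus holds only for the separation that the rule demanded. By library total the JM140 run was closer on the log2 scale to the fish of 9 weeks than to the JM132 run in every member. The overlap and the large gap that the choice asked for largely built this in.

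In edgeR's quasi-likelihood test of the JM140 run against exercised fish of 9 weeks, 82 of the 150 members were called higher and 0 lower at an adjusted p under 0.05. Unadjusted p was under 0.05 for 115 of the 150 members, beside 32.5% of all genes tested. DESeq2 called 98 members higher and 0 lower. Over all genes tested, 8.42% were called higher and 7.63% lower by edgeR, and 12% and 10.9% by DESeq2. The log2 fold change was above 0 for 147 members (98%), beside 50.1% of all genes, with a median of 0.52 and a range of -0.38 to 1.70. Leaving out 1 fish gave 56 to 90 members called higher. The count over all genes moved too, from 1536 of 18234 tested with every fish. It was 1022 of 18475 without JM144 (56 members) and 1425 of 18437 without JM142 (90 members). The rule used these fish, through its demand that the ranges overlap and through the gap, so the counts are a description of the members.

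Nfu_g_1_012399 and Nfu_g_1_020420 had the largest changes between the JM140 run and exercised fish of 9 weeks. Nfu_g_1_012399 had 2.25, 4.17, 3.78, 4.38 and 6.18 CPM in JM140 to JM144 and 1.30, 1.70, 1.17, 0.900 and 2.08 CPM in exercised fish of 9 weeks, a log2 fold change of 1.70 (SE 0.266). All 5 fish of the JM140 run lay above the exercised young ones, but not above the unexercised ones, which had 2.54, 1.30, 3.36, 2.24 and 1.82 CPM. In the JM132 run the level was 16.3 to 28.7 CPM. Nfu_g_1_020420 had 1.23, 2.47, 1.03, 1.67 and 2.66 CPM in JM140 to JM144 and 0.484 to 0.817 CPM in exercised fish of 9 weeks, a log2 fold change of 1.59 (SE 0.294). Again the JM140 run lay above all exercised young fish and overlapped the unexercised ones, at 0.641 to 1.23 CPM, through JM126. The JM132 run had 11.1 to 24.7 CPM.

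At the other end of this comparison stood Nfu_g_1_021582 and Nfu_g_1_017932. Nfu_g_1_021582 had 2.63, 2.30, 1.61, 2.16 and 1.49 CPM in JM140 to JM144 and 4.63, 2.48, 1.82, 1.97 and 4.09 CPM in exercised fish of 9 weeks, a log2 fold change of -0.38 (SE 0.310) with overlapping values. Without JM117 it was -0.10. Nfu_g_1_017932 had 28.4, 28.2, 31.3, 36.6 and 37.5 CPM in JM140 to JM144 and 31.3 to 44.5 CPM in exercised fish of 9 weeks, a log2 fold change of -0.01 (SE 0.0878). Their levels in the JM132 run were 12.3 to 20.2 CPM and 103.1 to 129.2 CPM.

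**Figure D4:**
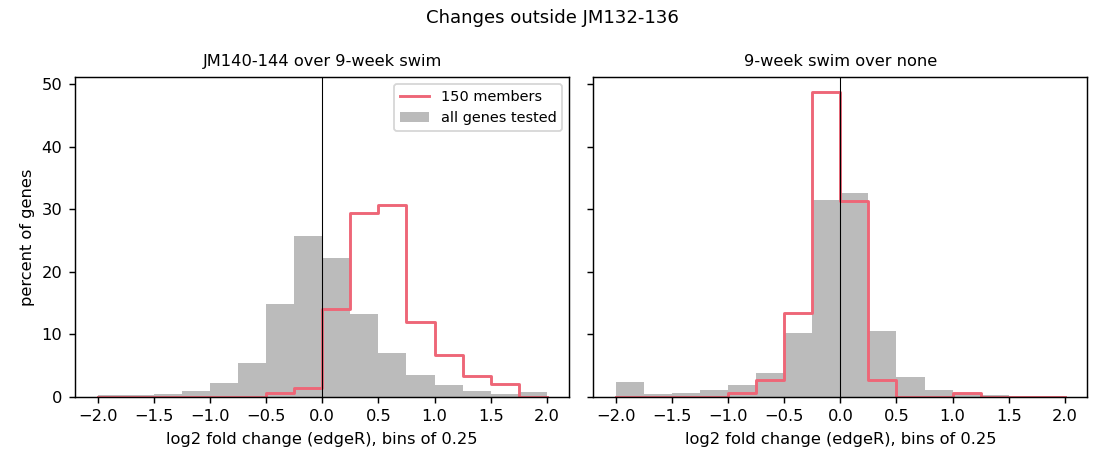
Distribution of edgeR log2 fold changes, in percent of genes per bin of 0.25, for the JM140 run over exercised fish of 9 weeks (left) and exercised over unexercised fish of 9 weeks (right). Grey bars are all genes tested and the line is the 150 members, and the outermost bins also hold values beyond 2 in either direction; the members centre on 0.52 in the left panel and on -0.08 in the right.

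No member passed edgeR's threshold for exercise at 9 weeks. edgeR called 0 of 150 members at an adjusted p under 0.05, with unadjusted p under 0.05 for 9. DESeq2 called 2 higher and 1 lower. Over all genes, 0.0054% were called higher and 0.0054% lower by edgeR, 14.8% had an unadjusted p under 0.05, and DESeq2 called 1.46% higher and 1.31% lower. The median log2 fold change of the members was -0.08, 0.01 without JM126 and -0.03 without JM120. By library total, 78.7% of members had a lower mean in exercised than in unexercised fish (window 61.2%), and 52.7% without JM126 (window 54.9%). With TMM scaling these shares were 58% (window 46.6%) and 45.3% (window 48.8%). The members were chosen for overlapping ranges of these groups, which limits how far they can differ, and a p above the threshold does not show equal levels.

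Nfu_g_1_021582 and Nfu_g_1_017932, named above for the JM140 run, also had the largest increases with exercise. Nfu_g_1_021582 had 1.02, 0.966, 2.51, 1.42 and 1.19 CPM in unexercised fish, a log2 fold change of 1.17 (SE 0.345), with JM126 inside the exercised range. Nfu_g_1_017932 had 25.5, 24.2, 34.4, 30.0 and 25.9 CPM, a log2 fold change of 0.45 (SE 0.0901), and again JM126 alone overlapped the exercised fish. Neither passed edgeR's adjusted threshold (adjusted p = 0.218 and 0.138), and DESeq2 called both (adjusted p = 0.0490 and 0.000870).

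Nfu_g_1_021272 and Nfu_g_1_020273 had the largest decreases with exercise. Nfu_g_1_021272 had 0.709, 0.522, 0.681, 0.208 and 0.416 CPM in exercised and 0.448, 0.966, 1.85, 0.783 and 0.566 CPM in unexercised fish, a log2 fold change of -0.75 (SE 0.429). Without JM126 it was -0.40. Nfu_g_1_020273 had 5.46, 6.91, 5.01, 6.40 and 4.73 CPM in exercised and 6.10, 7.92, 13.6, 9.86 and 9.81 CPM in unexercised fish, a log2 fold change of -0.65 (SE 0.204). The ranges overlapped in both genes, and neither passed edgeR's threshold (adjusted p = 0.428 and 0.240).

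In the comparisons that chose them, all 150 members were called higher by edgeR at an adjusted p under 0.05. Of all genes tested, 21.2% were called higher in the JM132 run than in the JM140 run, and 25.9% higher than in exercised fish of 9 weeks. The members' log2 fold changes ran from 1.26 to 3.96 over the JM140 run, with a median of 1.87. Over exercised fish of 9 weeks they ran from 1.43 to 4.61, with a median of 2.43. The rule used these values, and nothing is read from the calls. The comparisons with exercised fish of 9 weeks share those 5 fish.

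Gene length was not part of the rule, though level was. The members had a median length of 2.76 kb, with quartiles of 1.58 and 4.05 kb, and genes of the CPM window a median of 2.82 kb, with quartiles of 1.43 and 4.84 kb. The longest genes were fewer among the members, whose 90th percentile was 5.61 kb beside 7.18 kb. All 2415 genes that met the rule shared this, with a 90th percentile of 5.96 kb and a median of 2.49 kb. The part of level in it was not tested. Length rose with level in the other 15 fish. Its median was 1.21 kb in the 3 members under 1 CPM, then 1.86 and 3.25 kb, and 3.93 kb at 20 CPM or more. CPM is not divided by length, so part of this rise may be built in, and it was not set beside the window. Per kb of length, the median member had 3.13 CPM in the other 15 fish, beside 4.82 for the window, and 17.3 CPM in the JM132 run, beside 5.37.

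Libraries of the JM132 run had lower levels of long relative to short genes. Regressing each gene's deviation from its own mean over the 20 fish on its log2 length gave slopes of -0.0608 to -0.0175 in the JM132 run and -0.0256 to 0.0138 in the JM140 run. The lowest slope of the JM140 run, in JM141, lay within the range of the JM132 run. The slope was 0.00404 to 0.0392 in exercised and 0.00554 to 0.0161 in unexercised fish of 9 weeks. Its part in the choice of members was not tested.

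**Figure D5:**
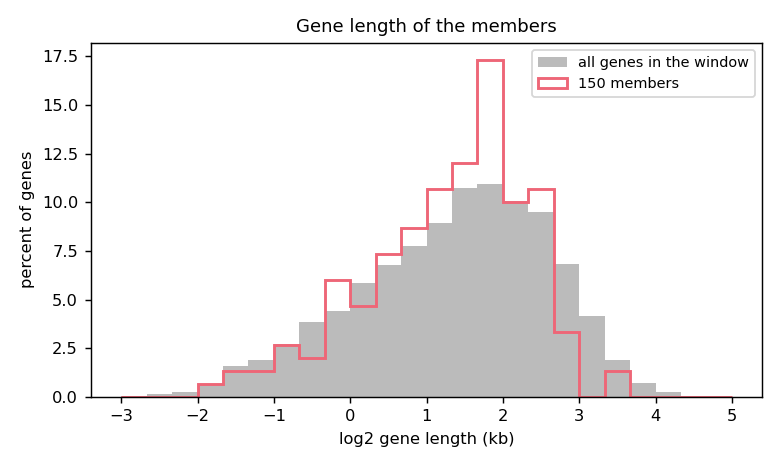
Length of the 150 members (line) and of all genes in the CPM window (grey), as percent of genes per bin of log2 length in kb. The medians are 2.76 and 2.82 kb, and the members thin out at the long end.

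At the limit of 150 genes, the last member had 45.2 CPM in its lowest fish of the JM132 run and 20.2 CPM in the highest of the other 15, a gap of 1.143 on the log2 scale. The first gene beyond the limit had 203.7 and 92.1 CPM and a gap of 1.141. The boundary is thus one of number, and 2415 genes met the rule without it. Their median log2 difference between the JM132 run and the JM140 run was 1.04 by library total, beside 2.05 for the members and 0.23 for the window.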

How the data were processed

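Skin RNA of 20 fish was sequenced from TruSeq RNA libraries, version 2, per the labels' protocols. Software named in the submitters' processing notes was featureCounts 1.4.6-p4, STAR 2.4.1d and bcl2fastq 1.8.4, with no order stated. The build, annotation, strand setting and handling of multiply mapped reads were not given in the sources used. Overlapping genes and close copies may therefore share reads. Per gene and library, the deposited table gives raw counts, with no normalization by the authors. The deposited RPKM values are scaled by gene length and library total. For 10228 well-covered genes, count divided by RPKM was constant between libraries only if the 20 totals had been recycled down the rows (median SD of the natural log 3.77e-05, against 0.227 with own totals). RPKM therefore served only for gene length and as an alternative.

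CPM used column totals of 20597690 to 38619614 counts, so 1 CPM is about 20.6 to 38.6 counts. Members followed the rule given in the report. Sets came from the age and perturbation labels and, at 27 weeks, from the titles, whose numbers name the fish here without their decimal. Over 40 pairs within sets, no libraries agreed within sampling noise (lowest chi-square per degree of freedom 36.3). No per-sample column was left unused.

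Tests used edgeR 4.0.16 (R 4.3.3) with TMM scaling, its expression filter and robust quasi-likelihood fits of the 2 sets compared, with Benjamini-Hochberg adjustment over all genes tested and a threshold of 0.05. All 150 members passed the expression filter in each comparison. Standard errors are the absolute log2 fold change over the square root of F. Scripts were tested on simulated data. Alternatives were DESeq2 1.42.0, its size factors, no count filter, 1 fit of all 20 libraries, other pseudocounts and scalings, the deposited RPKM and leaving out each fish.

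Members, lists and tests were chosen with earlier results of these data known. Identifiers are printed by rule: the 2 members with the largest gap, the 2 at each end of the fold changes of the JM140 run over exercised and of exercised over unexercised fish of 9 weeks, and the 2 with the largest and the smallest spread within the JM132 run. Marker lists need gene names and were not run.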

Additional observations from a re-analysis of the deposited data

Results flagged for a closer look

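In 76 checks for a single fish far from the other 4 of its set, over library measures, member levels and named members, 5 stood out, where chance gives about 3.8. The median member level of JM120, an exercised fish of 9 weeks, was 2.55 as log2(CPM + 0.5), with the next lowest fish at 2.87. The same fish was low for Nfu_g_1_021233, at 2.05 against 3.03, and for Nfu_g_1_022827, at 0.72 against 1.19. JM126, an unexercised fish of 9 weeks, was high for Nfu_g_1_020462, at 3.72 against 2.20, and for Nfu_g_1_021233, at 4.39 against 2.99.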

How the results depend on the processing

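The number of genes meeting the rule, 2415, cannot move with the pseudocount, but the 150 with the largest gap can: 95.3% of members were kept at a pseudocount of 0.1 and 92.7% at 2. The number was 2016 with TMM-scaled CPM (108 of the 150 members kept), 2056 with DESeq2's size factors (113 kept) and 1034 with the deposited RPKM (98 kept), whose totals are misplaced. Leaving out each fish gave 2340 to 2795. The members' median log2 difference over the JM140 run, 2.05, was 1.78 with TMM scaling and 1.87 with a pseudocount of 2. Genes called between the JM140 run and exercised fish of 9 weeks, 2927, fell to between 1851 and 2675 without 1 fish, and by more than 1.5 times without JM119 (1922), JM120 (1851), JM143 (1938) or JM144 (1860). For exercise at 9 weeks, 2 genes were called, 513 with DESeq2, 5 in the fit of all 20 libraries and 0 to 7 without 1 fish, and DESeq2 called 2 members higher and 1 lower. The members' median log2 fold change with exercise ran from -0.12 to 0.0124 without 1 fish, the last without JM126. That of Nfu_g_1_017932 between the JM140 run and exercised fish of 9 weeks ran from -0.0485 to 0.0225 without 1 fish. All other results kept their direction and call under the alternatives run, except the calls of Nfu_g_1_021582 and Nfu_g_1_017932 by DESeq2 given in the report; the cause of these differences was not tested. No paired analysis was possible because the labels give no replicate numbers, and title order pairs no fish. At this depth, members under 1 CPM rest on few counts per library.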

Other observations

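The mirror image of the rule, with every fish of the JM132 run below the other 15, was met by 475 genes (2.85% of the CPM window), against 2415 for the rule itself. Both counts move with the scaling, to 1240 and 2016 with TMM-scaled CPM. Without the demands that ranges overlap, 13 genes (0.078% of the CPM window) had every fish of the JM140 run above the other 15. The like count for the JM132 run was 2572 (15.4%), and both are by library total. With TMM scaling the count for the JM140 run was 68, and that for the JM132 run was not computed. The part of library composition in this contrast was not tested.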
